A study of Chlorocebus aethiops with 36 samples.

Results

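The acute phase proteins described here are 10 plasma proteins of the liver: CRP, LBP, HP, ORM1, SERPINA3, HAMP, CP, TTR, AHSG and ALB. They were followed as mRNA on 36 arrays of liver biopsies, by every probe set whose platform annotation names one of these genes and no other. The 10 genes, of 19775 that the annotation names singly, had 19 probe sets of the 54675 on the array. Of these, 18 passed the filter on low values, as did 27304 of all probe sets. The exception was CP 227253_at, with a mean of 2.98 on the log2 scale. A further 3 probe sets name a member together with a close relative (ORM1 with ORM2, or HP with HPR) and were left out.

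The biopsies came from 12 male African green monkeys (Chlorocebus aethiops), and the array (HG-U133 Plus 2.0) was designed on human transcripts. All animals received an oligonucleotide under the skin at 5 mg/kg, 2 doses a week at first and weekly later. In 6 animals it was anti-miR-33, which blocks the microRNA miR-33, and in the other 6 a control anti-miR, so no group after baseline was free of an oligonucleotide. Each animal was sampled untreated at week -5 and treated at week 4, both on chow, and again at week 12, when it had eaten a diet high in carbohydrate and moderate in cholesterol for 8 weeks. Treatment time and diet therefore cannot be told apart at week 12. Baseline arrays were assigned to an arm by the later labels of the same animal, and the week 4 array of control animal 1 carries the diet label of week 12, unlike the other 11 of that week.

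In the acute phase response, interleukin-6, acting through the shared receptor subunit gp130 (gene IL6ST) and the factor STAT3, and interleukin-1, acting through NF-kB and C/EBP factors, turn hepatocyte transcription towards defence proteins. CRP, LBP, HP, ORM1, SERPINA3, HAMP and CP are the 7 members known to rise in it. TTR, AHSG and ALB are the 3 known to fall. Hepatocytes are the main source of these proteins in plasma.

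All values are the deposited log2 values of a probe set, where a difference of 1 is a doubling, and they were compared between groups for 1 probe set at a time, because a human probe can mismatch a monkey transcript. Differences are given ± their standard error from 1 limma fit to all 36 arrays with the animal as a random block, and adjusted p-values are Benjamini-Hochberg values over all 27304 probe sets, with a threshold of 0.05. In biopsies, fewer cells of a type and less RNA per cell cannot be told apart. On 33 arrays the highest value lay between 14.98 and 15.07, and on 3 it was lower: 13.80 in control animal 5 at week 12, 14.28 in anti-miR-33 animal 5 at week 4 and 14.80 in control animal 6 at week 4. The 3′ minus 5′ difference of the array's GAPDH and ACTB controls, a measure of RNA quality, was 2.57 ± 0.43 at week -5, 1.94 ± 0.41 at week 4 and 1.83 ± 0.16 at week 12 (SD, n = 12). The identifiers of the week 4 arrays belong to another number series than those of the other times, so that time and that series cannot be told apart in any comparison with week 4. Of the 11 hepatocyte marker genes measured, 1 rose and 2 fell from baseline to week 12, and their mean level was 10.36 and then 10.39. Of 8 endothelial markers, 7 fell over the same time (mean level 7.17, then 6.41). So did 3 of 7 stellate cell, 2 of 8 Kupffer cell, 2 of 6 erythroid and 1 of 8 lymphocyte markers. Of 3 neutrophil markers 1 rose, and 0 of 4 cholangiocyte markers changed. These counts are of markers that passed, and from baseline to week 12 24.1% of all probe sets passed. The part of RNA quality and of cell makeup in the changes over time was not tested. A fit with the 3′ minus 5′ value as a covariate is given below. It cannot separate that value from time, because the value itself differed between baseline and the later weeks.

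The question of the time comparisons is how these genes stood after treatment and diet against the same animals before them. From baseline to week 12, CRP, LBP, HP and CP were higher in both arms together, by 1.17-fold to 1.71-fold. With the 3′ minus 5′ value as a covariate, none of these 4 passed by its probe set of highest mean, though CP 1558034_s_at did. HAMP, ORM1, SERPINA3, TTR and AHSG did not pass the test, though SERPINA3 did with the animal as a fixed block. The 4 ALB probe sets disagreed. In all, 9 of 18 member probe sets passed, 8 of them upward, where 24.1% of all probe sets passed. By gene, taking the probe set of highest mean, 4 of 10 members passed, where 3739 of 13634 genes did with the gene as the unit. The median change of the 18 was 0.23, and that of all probe sets tested was -0.004.

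**Figure D1:**
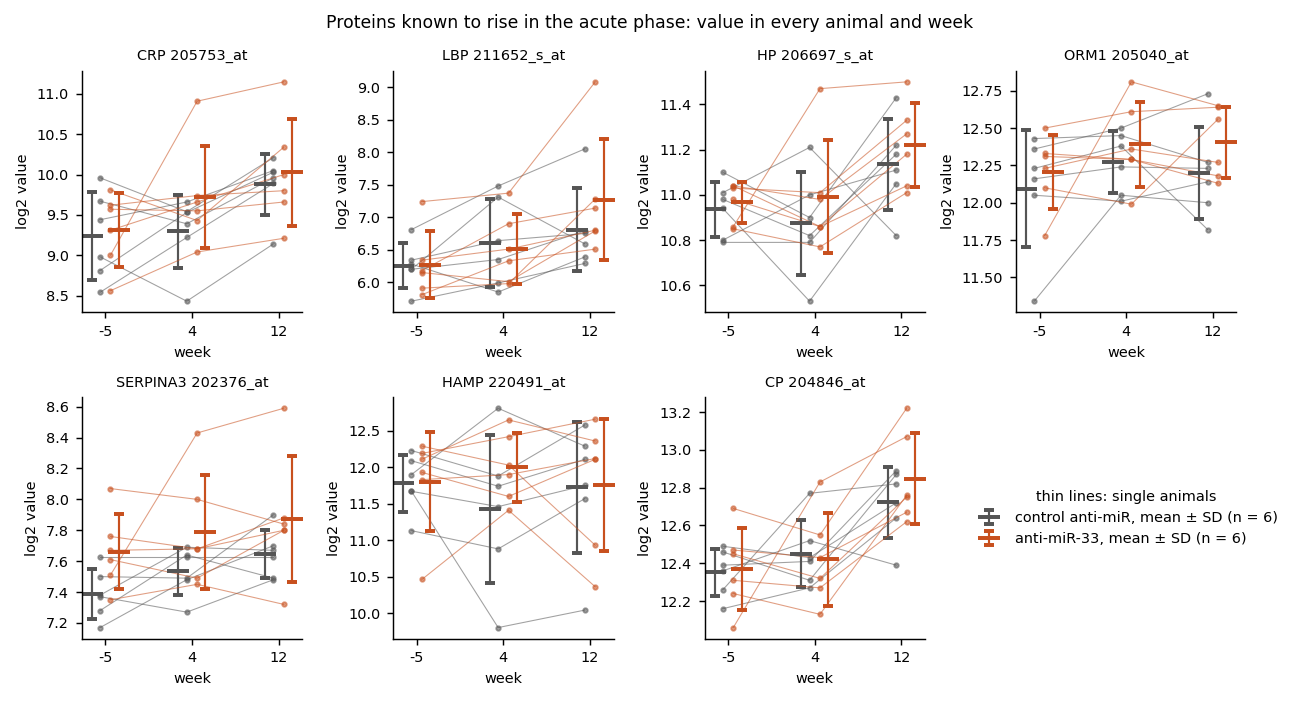
Log2 value (vertical axes) of the 7 members known to rise, by week (horizontal axes), for the probe set of highest mean of each. Thin lines are single animals, and thick marks with bars are the mean ± SD of 6 animals of an arm; the week 12 values of CRP and LBP lie above the week -5 value of the same animal in 12 of 12 animals, while HAMP spreads from 9.80 to 12.81.

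CRP, C-reactive protein, is a pentraxin that binds phosphocholine on microbes and dying cells. Its values by 205753_at ran from 8.54 over a median of 9.38 to 9.96 at baseline, from 8.43 over 9.54 to 10.91 at week 4, and from 9.14 over 9.98 to 11.15 at week 12. The weeks overlapped, but every animal ended higher than it began, by 0.09 to 2.15. The change from baseline to week 12 was 0.68 ± 0.18, or 1.60-fold (adjusted p = 0.00412). Most of it fell between week 4 and week 12, where 12 of 12 animals went up by 0.44 ± 0.18, but this step missed the threshold (adjusted p = 0.0615). The step from baseline to week 4 was 0.24 ± 0.18, with 7 animals up and 5 down. The second CRP probe set, 37020_at, followed the first closely (r = 0.91 over 36 arrays, which share animals) and rose by 0.42 ± 0.15 to week 12 (adjusted p = 0.0377), in 11 of 12 animals. That call was lost without any of control animals 1, 2, 4 and 5 or anti-miR-33 animals 4 and 5, when the change was 0.32 to 0.43.

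LBP, the lipopolysaccharide-binding protein that hands bacterial lipopolysaccharide to CD14, had the largest fold change of the members that rose. By 211652_s_at it ran from 5.71 over a median of 6.20 to 7.24 at baseline, from 5.85 over 6.43 to 7.48 at week 4, and from 6.29 over 6.79 to 9.08 at week 12. The 2 highest values of week 12 were 9.08 in anti-miR-33 animal 6 and 8.05 in control animal 2. Those animals were also the highest of their arms at baseline, at 7.24 and 6.81. The change from baseline to week 12 was 0.77 ± 0.20, or 1.71-fold (adjusted p = 0.00436), with 12 of 12 animals up, and without anti-miR-33 animal 6 it was 0.69 ± 0.16 (adjusted p = 0.00206). The second probe set, 214461_at, was higher by 0.55 ± 0.24 and did not pass (adjusted p = 0.0890), though it did without anti-miR-33 animal 6 (0.52 ± 0.18, adjusted p = 0.0356) and with the animal as a fixed block (0.55 ± 0.13, adjusted p = 0.00251).

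HP, haptoglobin, binds free hemoglobin. Its values by 206697_s_at lay close together at baseline, from 10.79 over a median of 10.98 to 11.10, and ran from 10.53 over 10.88 to 11.47 at week 4 and from 10.82 over 11.18 to 11.50 at week 12. The HP change was -0.02 ± 0.07 up to week 4 and 0.24 ± 0.07 from week 4 to week 12 (adjusted p = 0.0101), with 11 of 12 animals up. From baseline to week 12 it was 0.23 ± 0.07 (adjusted p = 0.0161), and 10 animals were up, 1 was down and 1 was level. Without control animal 3 this last call was lost (0.20, adjusted p = 0.0576). When the arrays were quantile normalized again, the step from week 4 was 0.16 (adjusted p = 0.0649). The left-out probe set of HPR and HP averaged 14.23 ± 0.11, 14.18 ± 0.15 and 14.36 ± 0.27 (SD, n = 12) at the 3 times, a median of 0.71 below the top of the array.

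CP, ceruloplasmin, is the copper-carrying ferroxidase of plasma, and it had the smallest adjusted p of the members at week 12. By 204846_at it ran from 12.06 over 12.38 to 12.69 at baseline, from 12.13 over 12.42 to 12.83 at week 4 and from 12.39 over 12.76 to 13.22 at week 12. The weeks overlapped, and every animal was higher at week 12 than at baseline. The change was 0.08 ± 0.08 up to week 4, 0.35 ± 0.08 from week 4 to week 12 (adjusted p = 8.62e-04) and 0.42 ± 0.08, or 1.34-fold, over the whole time (adjusted p = 6.20e-05). The probe set 1558034_s_at gave 0.00 ± 0.07, 0.32 ± 0.07 (adjusted p = 0.00112) and 0.33 ± 0.07 (adjusted p = 7.39e-04) for the same steps, and 11 of 12 animals were up over the last. Another, 228143_at, was at 6.49 on average and changed by 0.10 ± 0.12 to week 12, which did not pass.

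SERPINA3, alpha-1-antichymotrypsin, inhibits neutrophil cathepsin G. By 202376_at its values ran from 7.17 over 7.51 to 8.07 at baseline and from 7.32 over 7.75 to 8.59 at week 12. The difference of 0.23 ± 0.09 did not pass (adjusted p = 0.0674), with 9 animals up and 2 down. With the animal as a fixed block it passed (0.23 ± 0.08, adjusted p = 0.0314), as it did without anti-miR-33 animal 2 (0.26, adjusted p = 0.0378) or 3 (0.28, adjusted p = 0.0368). ORM1, the alpha-1-acid glycoprotein that carries drugs and lipids, ran from 11.34 over 12.23 to 12.50 at baseline and from 11.82 over 12.25 to 12.73 at week 12, a difference of 0.15 ± 0.10 (adjusted p = 0.309). In each arm 4 animals were up and 2 were down. The left-out probe set of ORM2 and ORM1 of higher mean averaged 12.34 ± 0.26, 12.68 ± 0.23 and 12.63 ± 0.29 (SD, n = 12) at weeks -5, 4 and 12.

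HAMP encodes hepcidin, which lowers plasma iron by removing the iron exporter ferroportin (SLC40A1) from cells, and is induced by iron through BMP and SMAD signals as well as by interleukin-6. It differed between animals more than between weeks. Its values ran from 10.46 over 11.92 to 12.29 at baseline, from 9.80 over 11.81 to 12.81 at week 4 and from 10.04 over 12.11 to 12.66 at week 12. Control animal 1 went from 11.67 to 9.80 and then 10.04, and anti-miR-33 animal 5 from 10.46 to 11.41 and back to 10.36. Anti-miR-33 animal 6 stood at 12.29, 12.03 and 10.93. Over the whole time the change was -0.05 ± 0.25 (adjusted p = 0.914), with 9 animals up and 3 down. Those 3 animals are the ones that were down.

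**Figure D2:**
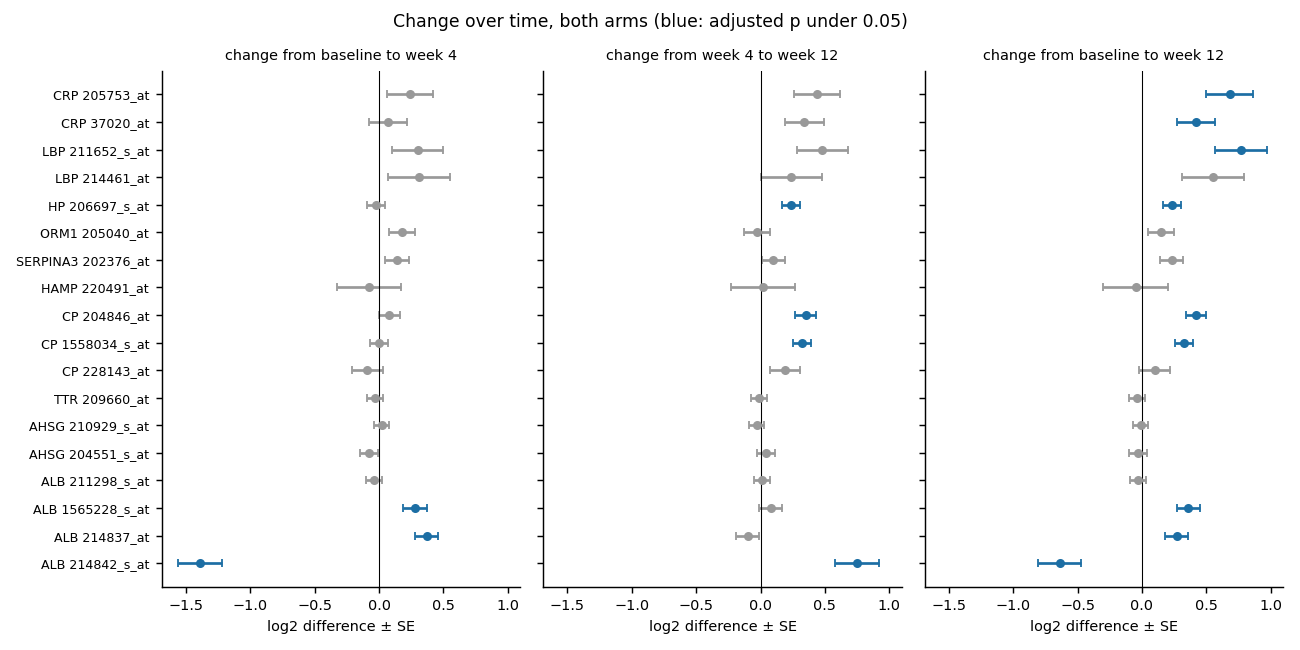
Change in log2 value (horizontal axes, ± SE from the limma fit) of the 18 member probe sets (vertical axis) for the 3 steps in time, both arms together. Blue marks passed at an adjusted p under 0.05: 3 from baseline to week 4, all of ALB, 4 from week 4 to week 12 and 9 from baseline to week 12.

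From baseline to week 4, on chow, 3 of 18 member probe sets passed, where 35.4% of all did. All 3 were of ALB, and none of the 7 members known to rise was among them. From week 4 to week 12, across the change of diet, 4 of 18 passed, all upward (HP, both main CP probe sets and ALB 214842_s_at), where 25.5% of all did. Where the animal was instead a fixed block, 7 of 18 passed in that step, the added ones being both CRP probe sets and LBP 211652_s_at. The 25.5% belongs to the random block, and the share of all probe sets with the fixed block is not given here.

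The baseline arrays had the highest 3′ minus 5′ values on average. A fit with that value therefore also takes up part of any change from baseline, and a call lost in it has no cause assigned here. With that value as a covariate, 1185 of all 27304 probe sets passed from baseline to week 12, among them 2 of 18 member probe sets. They were CP 1558034_s_at, at 0.40 ± 0.10 (adjusted p = 0.0156), and AHSG 204551_s_at, at -0.31 ± 0.08 (adjusted p = 0.0131). In that fit CRP 205753_at was at 0.27 ± 0.23 (adjusted p = 0.600), LBP 211652_s_at at 0.38 ± 0.28 (adjusted p = 0.517), HP at 0.16 (adjusted p = 0.410) and CP 204846_at at 0.30 (adjusted p = 0.0878). The calls of HP, CP and ALB 214842_s_at from week 4 to week 12, between times of like 3′ minus 5′ values, all stayed with the covariate.

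Of the members, TTR alone met the definition of near the top, within 1 log2 unit of the highest value of the array on 18 or more of the 36 arrays. TTR, transthyretin, carries thyroxine and retinol-binding protein, and its probe set 209660_at was that close on 32 of 36 arrays, at a median of 0.91 below the top. ALB 211298_s_at lay a median of 1.17 below the top and was within 1 unit on 3 arrays, and AHSG 210929_s_at lay 1.78 below and was within 1 unit on 1. All 3 were among the 100 highest probe sets on 36 of 36 arrays. Differences in TTR may be compressed.

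**Figure D3:**
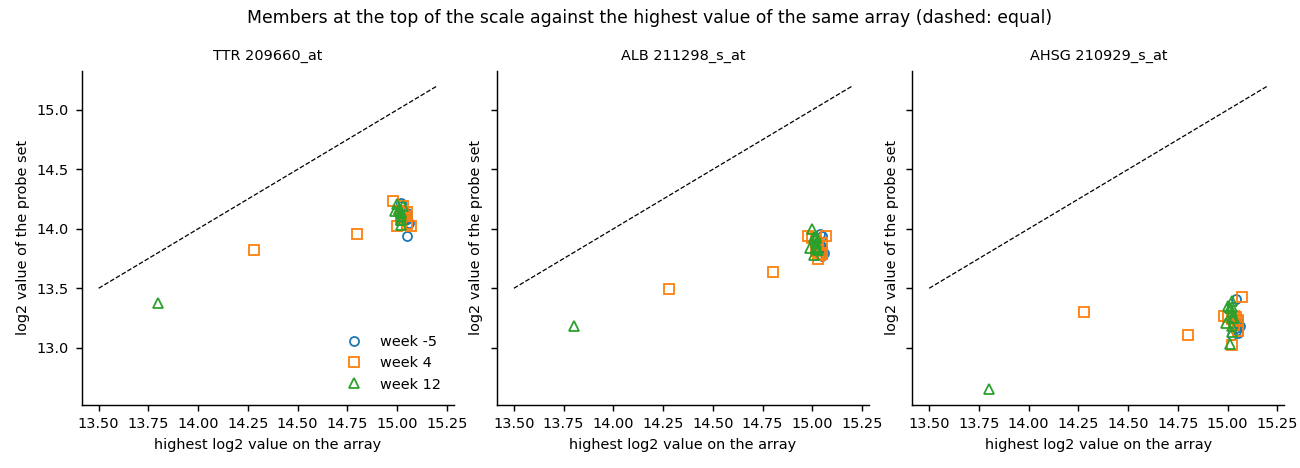
Log2 value of TTR, ALB and AHSG (vertical axes) against the highest log2 value of the same array (horizontal axes), 1 mark per array, with shapes for the weeks and a dashed line where both are equal. On 33 arrays the points form 1 cloud, and the array at a top of 13.80, control animal 5 at week 12, is the lowest of all 36 for each of the 3.

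TTR ran from 13.94 over 14.10 to 14.22 at baseline, from 13.82 over 14.10 to 14.23 at week 4 and from 13.38 over 14.14 to 14.21 at week 12. Its SD over all arrays was 0.15, and over the 33 arrays with the usual top it was 0.07. The changes were -0.03 ± 0.06, -0.01 ± 0.06 and -0.04 ± 0.06 for the steps to week 4, from week 4 to week 12 and over the whole time, and none passed. AHSG, fetuin-A, which keeps calcium phosphate from precipitating, changed by -0.01 ± 0.06 (210929_s_at) and -0.03 ± 0.07 (204551_s_at) from baseline to week 12. Neither passed. The second of these lies a median of 4.07 below the top of the array, and over the 36 arrays its r with the first was 0.34.

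**Figure D4:**
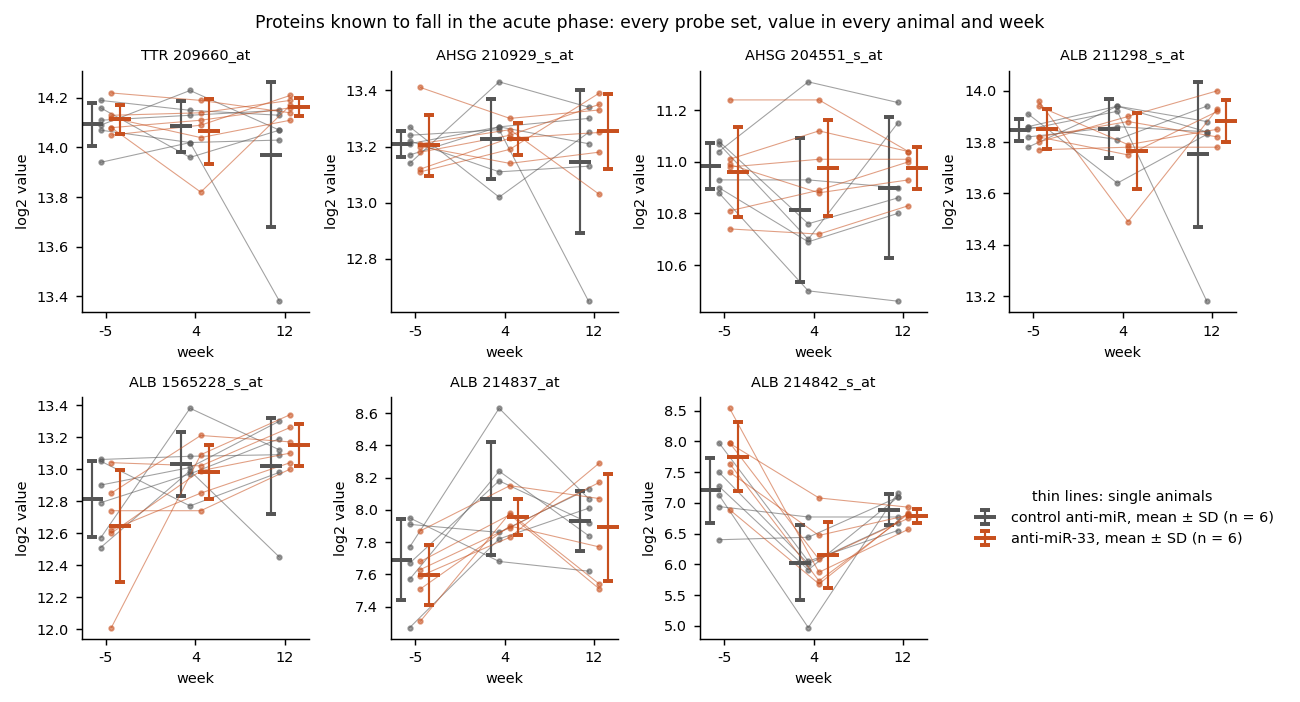
Log2 value (vertical axes) of all 7 probe sets of TTR, AHSG and ALB by week (horizontal axes). Thin lines are single animals, and thick marks with bars are the mean ± SD of 6 animals of an arm; ALB 214842_s_at is lower at week 4 than at baseline in 11 of 12 animals, while ALB 214837_at is higher in 10 of 12.

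ALB, serum albumin, is read by 4 probe sets that moved in different directions. The one of highest mean, 211298_s_at, ran from 13.77 over 13.84 to 13.96 at baseline and from 13.18 over 13.85 to 14.00 at week 12, a change of -0.03 ± 0.06 that did not pass. ALB 1565228_s_at ran from 12.01 over 12.77 to 13.06 at baseline, from 12.74 over 13.00 to 13.38 at week 4 and from 12.45 over 13.11 to 13.34 at week 12. It rose by 0.28 ± 0.09 to week 4 (adjusted p = 0.0133) and by 0.36 ± 0.09 to week 12 (adjusted p = 0.00258), in 9 and 10 of 12 animals. ALB 214837_at ran from 7.27 over 7.65 to 7.95, from 7.68 over 7.94 to 8.63 and from 7.51 over 7.97 to 8.29. It rose by 0.37 ± 0.09 to week 4 (adjusted p = 0.00187) and by 0.27 ± 0.09 to week 12 (adjusted p = 0.0280), each in 10 of 12 animals. The first of the 1565228_s_at calls was lost without control animal 1 (0.22, adjusted p = 0.0606). The week 12 call of 214837_at was lost without any of control animals 1, 3 and 5 or anti-miR-33 animals 2 and 3, when the change was 0.22 to 0.27.

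ALB 214842_s_at went the other way, and its change to week 4 was the largest of the 18 member probe sets in that step. It ran from 6.40 over 7.50 to 8.54 at baseline, from 4.97 over 6.03 to 7.08 at week 4 and from 6.55 over 6.81 to 7.16 at week 12. It fell to week 4 in 11 of 12 animals, by 1.39 ± 0.17 on the log2 scale (adjusted p = 1.08e-07), and rose from week 4 to week 12 by 0.75 ± 0.17 (adjusted p = 0.00140). Over the whole time it fell by 0.64 ± 0.17 (adjusted p = 0.00462). With the 3′ minus 5′ value as a covariate that last value was 0.16 (adjusted p = 0.613), and those of 1565228_s_at and 214837_at were 0.04 and 0.16, which did not pass. The rises of 1565228_s_at and 214837_at to week 4 did not pass in that fit either, while the fall of 214842_s_at to week 4 still did. The annotation gives the same source sequence for 214837_at and 214842_s_at, and their r over the 36 arrays was -0.54. That of 211298_s_at with the other 3 was 0.39, -0.06 and 0.12. No direction for albumin mRNA can be read from these probe sets together.

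The arm comparisons ask whether these genes differed with miR-33 blocked. No member probe set passed between the arms at any of the times. The 1 member with an unadjusted p under 0.05 at baseline was ALB 214842_s_at, at 0.55 ± 0.26 before any treatment (unadjusted p = 0.0402, adjusted p = 0.999). Over all probe sets, 0% passed at baseline and 0% at week 4. At week 12, 0.00366% passed, which is 1 probe set (PIN4). At an unadjusted p under 0.05 there were 1 of 18 members at baseline, 0 at week 4 and 1 at week 12, and 1042, 1400 and 778 of all probe sets. The median member difference, anti-miR-33 minus control, was 0.03, 0.06 and 0.13 at weeks -5, 4 and 12, with 14, 10 and 15 of 18 above 0, and the median of all probe sets was -0.002, 0.008 and 0.

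**Figure D5:**
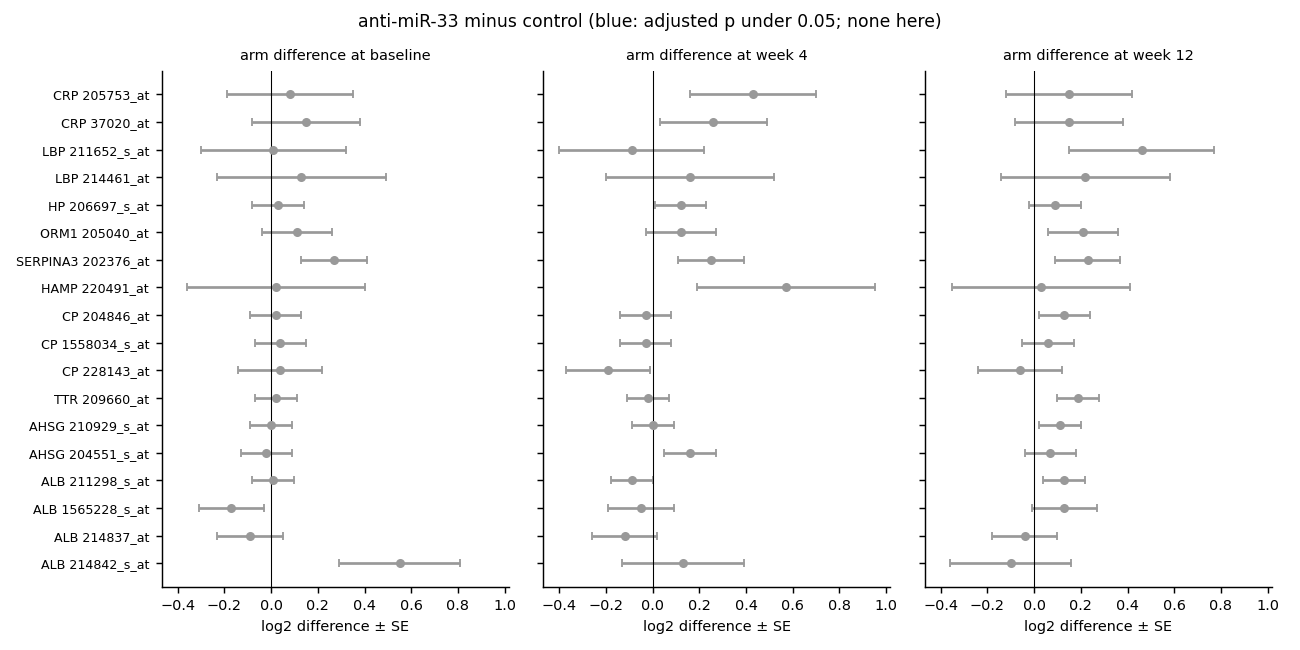
Difference in log2 value, anti-miR-33 minus control (horizontal axes, ± SE from the limma fit, 6 animals an arm), of the 18 member probe sets (vertical axis) at baseline, week 4 and week 12. All marks are grey because none passed; the largest at week 4 is HAMP at 0.57 and at week 12 LBP at 0.46.

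The 3 largest arm differences during treatment were those of HAMP, LBP and CRP, and each was smaller by over 1.5 times without 1 animal. That animal had the lowest control value or the highest treated value of the gene. Leaving it out could therefore only make the difference smaller. HAMP at week 4 ran from 9.80 over 11.60 to 12.81 in controls and from 11.41 over 11.97 to 12.65 in treated animals, so the treated values lay inside the range of the controls. The difference was 0.57 ± 0.38 (adjusted p = 0.991), and without control animal 1 it was 0.25 ± 0.33. CRP 205753_at at week 4 ran from 8.43 over 9.46 to 9.66 in controls and from 9.04 over 9.61 to 10.91 in treated animals. Its difference of 0.43 ± 0.27 (adjusted p = 0.987) was 0.19 ± 0.23 without anti-miR-33 animal 4. LBP 211652_s_at at week 12 ran from 6.29 over 6.67 to 8.05 in controls and from 6.51 over 6.97 to 9.08 in treated animals. Its difference of 0.46 ± 0.31 (adjusted p = 0.999) was 0.09 ± 0.25 without anti-miR-33 animal 6.

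TTR at week 12 had the smallest unadjusted p of the members then (0.0314, adjusted p = 0.999). It ran from 13.38 over 14.07 to 14.15 in controls and from 14.11 over 14.17 to 14.21 in treated animals, and the arms overlapped, since control animals 2 and 3 (14.13 and 14.15) lay inside the treated range. The difference was 0.19 ± 0.09, and 0.08 ± 0.06 without the week 12 array of control animal 5. Likewise ALB 211298_s_at differed by 0.13 ± 0.09 with that array and by 0.02 ± 0.07 without it, and AHSG 210929_s_at by 0.11 ± 0.09 and 0.01 ± 0.07. SERPINA3 was higher in the treated arm already before treatment, by 0.27 ± 0.14, then by 0.25 ± 0.14 at week 4 and 0.23 ± 0.14 at week 12; the adjusted p-values were 0.999, 0.972 and 0.999. Without anti-miR-33 animal 4, which had the highest SERPINA3 at both later times, those differences were 0.13 ± 0.11 and 0.08 ± 0.11.

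The change itself differed between the arms in 0 of 18 members for each of the 3 steps, as in 0% of all probe sets (945, 970 and 618 at an unadjusted p under 0.05 for the steps to week 4, from week 4 to week 12 and over the whole time). From baseline to week 12, CRP 205753_at changed by 0.71 ± 0.25 in the treated arm and by 0.65 ± 0.25 in controls, and CP 204846_at by 0.48 ± 0.11 and 0.37 ± 0.11. LBP 211652_s_at changed by 0.99 ± 0.29 and 0.55 ± 0.29, with 6 of 6 animals up in each arm. The widest gap in change of that step was that of ALB 214842_s_at, at -0.97 ± 0.24 against -0.31 ± 0.24 (difference -0.65 ± 0.34, adjusted p = 0.999). The gap was 0.07 ± 0.36 for CRP 205753_at, 0.44 ± 0.41 for LBP 211652_s_at and 0.01 ± 0.50 for HAMP.

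For these ranks each member is read by its probe set of highest mean. Among the 7 members known to rise, 2 animals were the highest of 12 for 4 or more at some time. Both were of the anti-miR-33 arm, and animal 6 was so only at baseline, untreated. Animal 4 was the highest of 12 for none of the 7 at baseline. At week 4 it was the highest for CRP, HP, ORM1, SERPINA3 and CP, and at week 12 for CRP, HP, SERPINA3 and HAMP. Its CRP went from 9.00 to 10.91 and 11.15, and its SERPINA3 at those later times was 8.43 and 8.59, the highest of all. Of 18 other proteins listed as rising, this animal was the highest for 4 at week 4 (FGB, FGL1, HPX and A2M) and for 4 at week 12 (FGA, FGB, FGG and HPX). That list is not limited to proteins that rise in primates. Of 19 genes of cytokine signalling it was the highest for 5 at each of those times, STAT3, CEBPD, OSMR and IL1RAP at both, and control animal 1 at week 4 and control animal 2 at week 12 were also the highest for 5. Its mean over 8 Kupffer cell markers was the highest of 12 at baseline and week 12 (6.75 and 6.73) and was 6.27 at week 4, rank 5. By their probe sets of highest mean, TTR, AHSG and ALB were lowest in animal 4 at none of the times. Its ALB 1565228_s_at was the lowest of 12 at baseline (12.01). Animal 6 was among the 3 highest for 7 of 7 members at baseline, and the highest for LBP, ORM1, HAMP and CP, before any oligonucleotide was given. At week 12 it was the highest for LBP and CP, while its HAMP was 10.93. It was then among the 3 highest for 4 of the 7, and so was control animal 2, which was the highest for 0. By the other main CP probe set, 1558034_s_at, control animal 2 was the highest at week 12 (12.71), above anti-miR-33 animal 6 (12.64).

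Across the 36 arrays, which share animals and normalization, the likeness of the members is given as Pearson r, as a description. The pairs of highest r among those known to rise were CRP with SERPINA3 (0.79), HP with CP (0.75) and LBP with CP (0.70). TTR with ALB was at 0.82 and AHSG with ALB at 0.73, but over the 33 arrays with the usual top these were 0.07 and 0.66, so the first rests on the 3 arrays of low top value. The 3 pairs of members known to rise were at 0.81, 0.77 and 0.69 over those 33. HAMP stood apart from the other members, from -0.24 with ORM1 to 0.21 with SERPINA3. Of all other genes tested, the one most like HP was SPRY4-IT1 (0.81), followed by STAT3 (0.76), and those most like CP were MCL1, the fibrinogen beta chain FGB and STAT3 (0.81 each). ORM1 was most like hemopexin HPX (0.74) and FGB (0.72), and among other genes SERPINA3 was most like the secreted phospholipase PLA2G2A (0.80). CRP was most like ASRGL1 (0.80), LBP was most like SAR1B (0.77), and HAMP was most like USF2 (0.62) and ID1 (0.61), the latter a target of BMP signals. TTR was most like C3 (0.91), AHSG APOA2 (0.76) and ALB EEF1A1 (0.91), and over the 33 arrays these were 0.43, 0.64 and 0.59.

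The other genes of the response moved in mixed directions. Each gene of these other lists is read by its probe set of highest mean alone. Its other probe sets, and its values with the 3′ minus 5′ covariate, are not given here. Of the 18 further proteins listed as rising, not all of which need do so in primates, 4 rose and 2 fell from baseline to week 12. Their median was 0.07, and 24.1% of all probe sets passed. The complement protease C1S rose by 0.33 ± 0.06 (adjusted p = 1.71e-04), while its partner C1R fell by 0.31 ± 0.06 (adjusted p = 3.06e-04). FGL1 rose by 0.38 ± 0.12 (adjusted p = 0.0173), the fibrinogen gamma chain FGG by 0.27 ± 0.08 (adjusted p = 0.00873) and IL1RN, the interleukin-1 receptor antagonist, by 0.24 ± 0.08 (adjusted p = 0.0345). ITIH4 fell by 0.23 ± 0.05 (adjusted p = 9.79e-04). In the step to week 4, 2 of the 18 rose and 4 fell, the latter A2M, C1R, CD14 and VNN1, against 35.4% of all probe sets. From week 4 to week 12, against 25.5% of all, CD14 and VNN1 rose, by 0.31 ± 0.07 and 0.39 ± 0.10, and ITIH4 fell.

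Of 12 further proteins known to fall, the cortisol carrier SERPINA6 rose by 0.25 ± 0.07 and ITIH2 by 0.25 ± 0.06 from baseline to week 12, and the clotting factor F12 fell by 0.33 ± 0.06. The other 9 did not pass. Of all probe sets, 24.1% passed in that step. At week 12 the arm difference was above 0 in 12 of the 12, with a median of 0.13, and 0 passed. It was also above 0 in 11 of 11 hepatocyte markers (median 0.1) and 16 of the 18 further proteins listed as rising (median 0.07). It was above 0 in 8 of 19 signalling genes and 0 of 8 endothelial markers, and the median of all probe sets tested was 0. Genes of a list share the same arrays, so these counts are not of independent values. On the week 12 array of control animal 5, 10 of the 12 proteins known to fall were the lowest of the 12 animals. The counts without that array are not given here.

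Of 19 genes of the signalling pathway, 4 rose and 6 fell in the step to week 4, where 35.4% of all probe sets passed. IL6ST, the shared receptor subunit, fell by 1.62 ± 0.14 (adjusted p = 9.56e-11) and rose again by 0.99 ± 0.14 from week 4 to week 12. NR3C1, the glucocorticoid receptor, fell by 0.63 ± 0.06 and then rose by 0.39 ± 0.06. The kinase JAK2 rose in both steps, by 0.32 ± 0.10 and 0.27 ± 0.10, and was higher at week 12 than at baseline by 0.59 ± 0.10 (adjusted p = 5.25e-05). From week 4 to week 12, 7 of 19 rose, among them CEBPB by 0.41 ± 0.14, and SOCS1 fell by 0.23 ± 0.06, where 25.5% of all passed. From baseline to week 12, where 24.1% of all passed, 5 of 19 did: JAK2 and the interleukin-1 receptor IL1R1 (0.51 ± 0.10) rose, and IL6ST (-0.64 ± 0.14), LIFR (-0.52 ± 0.10) and NR3C1 (-0.23 ± 0.06) fell. The IL6 probe set, with a mean of 3.46, was below the filter.

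Of 14 genes of hepcidin control and iron handling, SMAD6, an inhibitor of BMP signals, fell by 0.49 ± 0.11 to week 4 and by 0.70 ± 0.11 to week 12 (adjusted p = 9.36e-06). SLC40A1, the target of hepcidin, fell by 0.37 ± 0.09 to week 4 and rose by 0.34 ± 0.09 afterwards, as HJV, the BMP co-receptor, did by 0.17 ± 0.06 each way. TMPRSS6, the protease that lowers hepcidin, rose by 0.16 ± 0.05 to week 4, fell by 0.32 ± 0.05 after it and was lower at week 12 than at baseline by 0.15 ± 0.05 (adjusted p = 0.0316). In all, 1 of the 14 rose and 3 fell to week 4, 4 rose and 1 fell from week 4 to week 12, and 0 rose and 2 fell over the whole time, where 35.4%, 25.5% and 24.1% of all probe sets passed. In control animal 1, whose HAMP was the lowest of 12 at weeks 4 and 12, ID1 went from 7.26 to 6.66 and 6.78, also the lowest of 12 at both of those times. ID1 is named because its pattern was among the most like that of HAMP, and other genes of BMP signals in that animal were mixed. SMAD6 (7.16 and 7.35 at weeks 4 and 12) and SMAD7 (4.97 and 5.43) were not the lowest of 12, and HJV was the lowest at week 4 (9.36) but not at week 12 (9.61).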

How the data were processed

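RNA of 36 liver biopsies (12 animals at weeks -5, 4 and 12) was labelled and hybridised to 36 one-colour arrays, per the labels' protocols. The deposited values are log2 expression values made by the authors with RMA, per the submitters' processing notes; its version is not given in the sources used here, nor is whether all arrays were normalized together. RMA forces arrays to like distributions, and probes that mismatch the monkey transcript lower a value in all groups. All 36 value columns belong to a sample, and 0 to none.

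Probe sets were named from the platform annotation. A member probe set names 1 of the 10 symbols and no other gene, and every one is described, with the values by sample for the probe set of highest mean and for those that passed. In the other lists, including the cell type markers, the probe set of highest mean stands for a gene. From these lists, up to 4 genes with the largest change that passed were named for each step, with some further ones chosen after their values were seen. The members and lists were chosen with earlier results of these data known. Control probe sets, and probe sets whose mean lay under the median of all means (4.459), were left out. The 6 groups of arm and time were fitted in R 4.3.3 with limma 3.58.1, with the animal as a random block (correlation 0.136). The animal identifiers in the labels pair the samples across times. Tests are two-sided, and each comparison has its own Benjamini-Hochberg adjustment. Near the top means within 1 log2 unit of the highest value of the same array on 18 or more of the 36 arrays. Pearson r over 36 arrays named the 3 most like genes, of which some are printed. The fit was tested on simulated data. Alternatives were the block, the filter, the gene as the unit, centring, quantile normalization, a 3′ minus 5′ covariate, single weeks, and leaving out animals or arrays; leaving out the 3 arrays of low top value was chosen after seeing the data. The number of arrays limits the precision. Figures used Python 3.11.15 with matplotlib 3.10.9.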

Additional observations from a re-analysis of the deposited data

Results flagged for a closer look

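Of 108 groups of 6 arrays (18 member probe sets in 6 groups), 17 held a highest or lowest sample that stood far from the nearest of the others by Dixon's ratio, where chance gives about 1 in 20.

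In the anti-miR-33 arm, animal 6 had the highest LBP by 211652_s_at at baseline (7.24, next 6.34) and at week 12 (9.08, next 7.28), and by 214461_at at baseline (7.25, next 5.46). Animal 4 of that arm had the highest week 4 values of CRP 205753_at (10.91, next 9.74) and HP (11.47, next 11.01). Animal 5 of that arm had the lowest HAMP at baseline (10.46, next 11.83), the highest AHSG 210929_s_at at baseline (13.41, next 13.21) and the lowest ALB 211298_s_at at week 4 (13.49, next 13.75), on an array whose top was 14.28.

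Among controls, animal 2 had the highest week 12 values of LBP by 211652_s_at (8.05, next 6.79) and 214461_at (7.19, next 6.02). Control animal 6 had the lowest CRP by 205753_at at week 4 (8.43, next 9.22), on an array whose top was 14.80, and at week 12 (9.14, next 9.89), and by 37020_at at week 12 (8.18, next 8.84). Control animal 4 had the lowest ORM1 at baseline (11.34, next 12.05). The week 12 array of control animal 5, whose top was 13.80, had the lowest TTR (13.38, next 14.03), AHSG 210929_s_at (12.65, next 13.13) and ALB 211298_s_at (13.18, next 13.83).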

How the results depend on the processing

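The 16 member values that passed were recomputed without each animal in turn, which gave 192 values: 13 no longer passed and 0 changed direction. With the animal as a fixed replicate block 0 of the 16 were lost. For the steps to week 4, from week 4 to week 12 and over the whole time, it called 3, 7 and 11 member probe sets. The reported fit called 3, 4 and 9, and 3, 4 and 8 were called with no replicate block. The shares of all probe sets called with these other blocks are not given here, so those counts have no share beside them. The fixed replicate block also called 1 probe set of all for the difference in change to week 4, against 0. With the 3′ minus 5′ value as a covariate, 9 of the 16 were lost and 1 changed direction (ALB 214842_s_at from baseline to week 12, 0.16); 2 member probe sets and 1185 of all passed over the whole time, against 9 and 6578. With the gene as the unit, 4871, 3759 and 3739 of 13634 genes passed in the 3 steps, against 9667, 6953 and 6578 of 27304 probe sets. The 1 probe set called between arms at week 12 became 0 with the gene as the unit, with each array centred on its median, without the week 12 array of control animal 5, with the arrays of that week alone and without the 3 arrays of low top value, and was 0 to 1 without single animals. Without single animals, 2 to 3, 4 to 6 and 7 to 10 member probe sets passed in the 3 steps. Causes of the changes were not tested. A value near the top of an array, as for TTR, limits how large a rise can be seen.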
